A study of Mus musculus with 26 samples.

Results

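Argonaute proteins hold a small RNA and use it to find target RNAs, and the AGO clade does so with microRNAs, whereas the PIWI clade does so with piRNAs. A microRNA is cut out of its primary transcript in the nucleus by the Microprocessor, made of the nuclease DROSHA and its RNA-binding partner DGCR8. The hairpin is exported by exportin 5 (XPO5), trimmed to a duplex by DICER1 with the help of TARBP2, and loaded into an AGO protein, which recruits a GW182 protein such as TNRC6A to repress and destabilize the target mRNA. AGO2 is the AGO protein known for slicing of extensively paired targets, and loss of *Dicer1* or *Drosha* from germ cells is known to disrupt spermatogenesis. The 10 genes described here, *Ago1*, *Ago2*, *Ago3*, *Ago4*, *Dicer1*, *Drosha*, *Dgcr8*, *Tarbp2*, *Xpo5* and *Tnrc6a*, were picked by symbol among the 51124 genes of the testis table. All 10 passed the filter on low values, and the table lists no gene of identical sequence for any of them.

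The study placed binding sites for piR-A, a pachytene piRNA, into *Ythdc2* downstream of its coding sequence (the gene encodes an RNA helicase of meiotic germ cells), to follow PIWI slicing of an mRNA. Total RNA of whole testes from adult mice was sequenced after ribosomal RNA depletion, with 2 libraries for each of the 3 genotypes. These were wild type (WT, libraries N1 and N2), *10xPerf*, with 10 sites that pair perfectly with piR-A (N3 and N4), and *10xBulge*, with 10 sites that carry mismatches opposite the cleavage position (N5 and N6). Whether the 2 libraries of a genotype came from separate mice is not stated in the sources used here. The knock-in lines were made with Cas9 in B6D2F1/J hybrid embryos and kept by crossing homozygous mice, with the sites in the last *Ythdc2* exon. The lines thus differ from WT by founder as well as by the inserted sites, and the background and age in weeks of the WT mice are not given in the sources used here. No library measures microRNAs, so the values are mRNA levels of the machinery.

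Values are normalized read counts per gene. A genotype difference is the log2 fold change of value + 1 from a limma fit over all 6 libraries and 23782 genes, and a gene is called at a Benjamini-Hochberg adjusted p under 0.1. Library depth was about 41.1 to 61.6 M reads, at which 3 reads are worth 2.73 to 3.63 normalized counts, far below every value of the 10 genes. *10xBulge* libraries stood apart from the others, as all 10 spermatid markers were lower than in WT and summed to 1053 and 1739 normalized counts against 499320 to 691383. Spermatocyte markers summed to 54457 in N5 and 51426 in N6, within the WT range of 39603 to 62124. None of these 10 markers was called against WT, beside 34.4% of all genes. Sertoli, Leydig and macrophage markers summed higher in both *10xBulge* libraries than in any other library (116498 to 252294, 155981 to 321963 and 7125 to 11268, against at most 71509, 85335 and 4892), and none of these markers was at 0 in any library. Spermatogonia markers also summed higher in both *10xBulge* libraries (22368 and 38916, against at most 16241). Of these 8 markers, however, 1 was called higher and 1 lower than in WT, beside 11.4% and 23.0% of all genes, and 6 were not called. In whole testis, fewer cells of a type and less RNA per cell cannot be told apart, and the part of cell make-up in the differences below was not tested. *Ythdc2* itself did not pass the threshold in either line (log2 fold change -0.20 in *10xPerf* and 0.28 in *10xBulge*, limma adjusted p = 0.939 and 0.754).

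Of the 10 genes, *Ago1* alone was called, and only in *10xBulge*. It was higher there than in WT and than in *10xPerf*, by 2.47-fold and 2.52-fold. The other 9 genes did not pass the threshold in any comparison, with *Dicer1*, *Dgcr8* and *Tarbp2* having the estimates farthest from 0 against WT after *Ago1*. Against WT, 8 of the 10 estimates in *10xBulge* were above 0, with a median log2 fold change of 0.66 beside -0.026 for all genes tested. The 1 call in 10 was higher, beside 34.4% of all genes tested that were called in this comparison (11.4% higher and 23.0% lower). Against *10xPerf*, the 1 call was also higher, beside 37.0% of all genes (12.9% higher and 24.1% lower). In *10xPerf* against WT, none of the 10 genes was called by limma, none had an unadjusted p under 0.05, and 0.959% of all genes were called (0.467% higher and 0.492% lower). The median of the 10 was 0.27 there, from -0.56 for *Tarbp2* to 0.83 for *Dgcr8*. The standard errors of the 10 genes were 0.41 to 0.54 on the log2 scale, so that values that missed the threshold do not show equal levels.

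**Figure D1:**
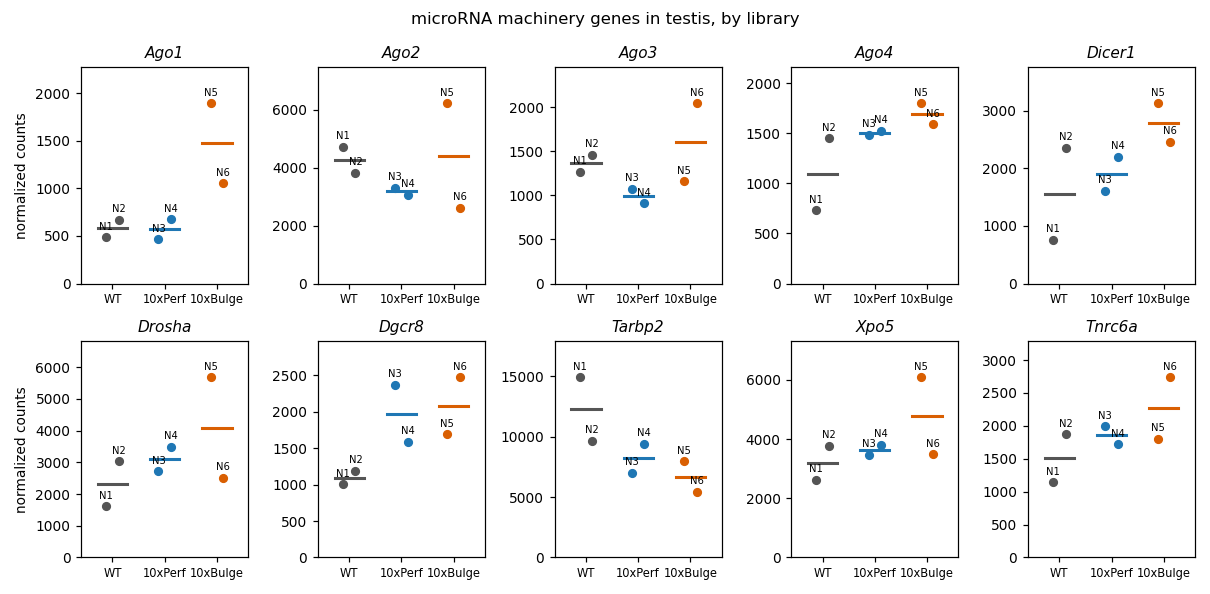
Normalized counts (linear axis from 0) of the 10 microRNA machinery genes in each of the 6 testis libraries. Points are libraries N1 to N6 and bars are genotype means (n = 2). *Ago1* is higher in N5 (1891) and N6 (1052) than in the other 4 libraries (464 to 674), whereas *Ago2*, *Drosha* and *Xpo5* differ as much between N5 and N6 as between genotypes.

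The 4 Argonaute genes were all expressed. *Ago1* (ENSMUSG00000041530.18) had 485 and 672 normalized counts in WT, 464 and 674 in *10xPerf*, and 1891 and 1052 in *10xBulge*. The WT and *10xPerf* libraries overlapped, and both *10xBulge* libraries lay above them, with N5 at nearly the double of N6. The mean ± SD of the pair was 579 ± 133 for WT, 569 ± 148 for *10xPerf* and 1472 ± 593 for *10xBulge* (n = 2 each). Against WT, *10xBulge* had a log2 fold change of 1.30 (limma adjusted p = 0.0629, 95% confidence interval 0.29 to 2.32, standard error 0.45). Against *10xPerf*, with the same *10xBulge* libraries, it was 1.33 (limma adjusted p = 0.0544, 95% confidence interval 0.32 to 2.35, standard error 0.45). Against WT in *10xPerf* it was -0.029 (95% confidence interval -1.05 to 0.99, limma adjusted p = 0.989). The call against WT was lost with any library other than N6 left out. The log2 fold change was then 1.07 without N1, 1.54 without N2, 0.88 without N5 and 1.30 without N3 or N4 (limma adjusted p = 0.265, 0.105, 0.241, 0.117 and 0.118), while without N6 it was 1.73 (limma adjusted p = 0.0298). The direction was the same in each case.

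*Ago2*, the slicer of the AGO clade, had 4722 and 3831 normalized counts in WT, 3297 and 3059 in *10xPerf*, and 6215 and 2612 in *10xBulge*. The *10xBulge* libraries held both the highest and the lowest value of the 6. Its log2 fold change was -0.078 in *10xBulge* (95% confidence interval -1.15 to 0.99, limma adjusted p = 0.925), which was -0.70 without N5 and 0.55 without N6. In *10xPerf* both libraries lay below both WT libraries, as 19.8% of all genes did, and the log2 fold change was -0.42 (95% confidence interval -1.49 to 0.65, limma adjusted p = 0.866).

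*Ago3* had 1268 and 1459 normalized counts in WT, 1074 and 909 in *10xPerf*, and 1158 and 2042 in *10xBulge*. Here N6, not N5, was the highest library. *Ago4* had 733 and 1450 in WT, 1485 and 1527 in *10xPerf*, and 1799 and 1592 in *10xBulge*. Both knock-in lines lay above WT for *Ago4*, and the WT libraries themselves differed by 0.98 on the log2 scale. In *10xBulge* against WT, the log2 fold change was 0.18 for *Ago3* (limma adjusted p = 0.792, 95% confidence interval -0.77 to 1.12) and 0.71 for *Ago4* (limma adjusted p = 0.257, 95% confidence interval -0.26 to 1.69). In *10xPerf* the values were -0.46 (95% confidence interval -1.40 to 0.48) and 0.55 (95% confidence interval -0.43 to 1.52), both with a limma adjusted p = 0.853.

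*Ago3*, *Ago1* and *Ago4* lie side by side on the reverse strand of chromosome 4. In the GENCODE annotation of GRCm38, used here for positions since the authors' GRCm39 is not, they span 126331704 to 126429556, 126435012 to 126468583 and 126489541 to 126533472, with no other protein-coding gene between them. *Ago2* is on the reverse strand of chromosome 15 from 73095844 to 73184935. Against WT, the *10xBulge* estimates of these neighbours were 0.18 for *Ago3*, 1.30 for *Ago1* and 0.71 for *Ago4*, and the differences among them were not tested. *Tekt2*, a sperm tail gene next to *Ago3*, was lower in *10xBulge* with a log2 fold change of -3.68 (limma adjusted p = 0.00329).

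Ratios within a library do not depend on how libraries are scaled. Per kb of the longest annotated transcript, *Ago1* made up 11.1% and 13.6% of the Argonaute mRNA in WT, 10.7% and 15.4% in *10xPerf*, and 24.7% and 20.5% in *10xBulge*. *Ago2* held 56.8% and 40.5% in WT, 39.9% and 36.5% in *10xPerf*, and 42.4% and 26.7% in *10xBulge*, so that its *10xBulge* and WT shares overlapped. *Ago4* held 18.6% and 32.3% in WT, 37.9% and 38.5% in *10xPerf*, and 25.9% and 34.3% in *10xBulge*. The *Ago3* share was between 6.99% in N5 and 18.5% in N6. The log2 ratio of *Ago1* to *Ago2* was -3.28 and -2.51 in WT, -2.83 and -2.18 in *10xPerf*, and -1.72 and -1.31 in *10xBulge*. The *10xBulge* libraries thus had the highest values, and the same held for *Ago1* over *Ago4*, where N6 and N1 were nearly equal (both -0.60), whereas for *Ago1* over *Ago3* *10xBulge* and *10xPerf* overlapped.

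**Figure D2:**
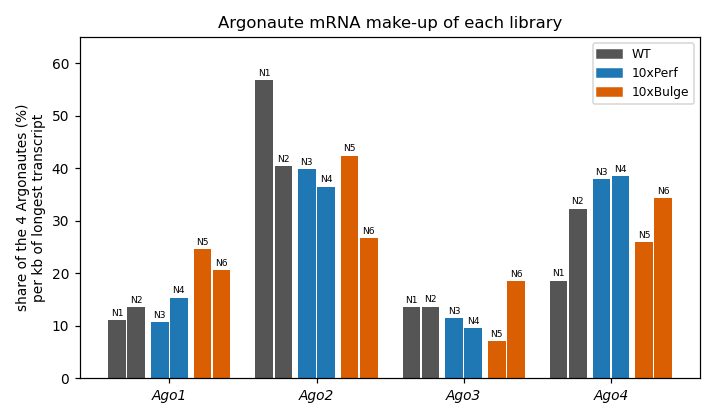
Share of each Argonaute gene in the sum of the 4 (percent, from normalized counts per kb of the longest transcript), with 1 bar per library and colours for the genotypes. The *Ago1* share is 24.7% in N5 and 20.5% in N6 and at most 15.4% in the other libraries, while the shares of the other 3 genes overlap between *10xBulge* and WT.

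*Tnrc6a*, whose protein links AGO proteins to deadenylation, had 1143 and 1872 normalized counts in WT, 1990 and 1721 in *10xPerf*, and 1804 and 2736 in *10xBulge*. Each knock-in line overlapped with WT. The log2 fold change was 0.60 in *10xBulge* (95% confidence interval -0.36 to 1.56, limma adjusted p = 0.331). For *10xPerf* it was 0.34 (95% confidence interval -0.62 to 1.30, limma adjusted p = 0.876).

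*Dicer1*, whose nuclease cuts the loop off microRNA precursors, had 755 and 2351 normalized counts in WT, 1614 and 2199 in *10xPerf*, and 3124 and 2453 in *10xBulge*. Both *10xBulge* libraries were above all others, and N1 was far below N2, a gap of 1.64 on the log2 scale and the widest within a genotype among the 10 genes. The log2 fold change in *10xBulge* was 1.05 (limma adjusted p = 0.187, 95% confidence interval -0.17 to 2.28, standard error 0.54). It was 0.24 without N1 and 1.87 without N2 (limma adjusted p = 0.772 and 0.0369), so that the WT library retained decides the value. In *10xPerf* it was 0.50 (limma adjusted p = 0.864), and -0.32 without N1.

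*Tarbp2*, a double-stranded RNA-binding partner of DICER1, had the highest level of the 10 genes and was the one gene whose estimates lay below 0 in all 3 comparisons. It had 14915 and 9661 normalized counts in WT, 7006 and 9438 in *10xPerf*, and 7953 and 5420 in *10xBulge*. Both WT libraries were above all knock-in libraries. The log2 fold change was -0.87 in *10xBulge* (limma adjusted p = 0.173, 95% confidence interval -1.85 to 0.11, standard error 0.43). For *10xPerf* it was -0.56 (95% confidence interval -1.54 to 0.42, limma adjusted p = 0.853). With the trend of each library with GC content removed, *10xBulge* was called lower, at -0.95 (limma adjusted p = 0.0335). Over the alternative settings with all libraries, the value ranged from -0.95 to -0.49 (limma adjusted p = 0.0335 to 0.298). *Tarbp2* has the highest GC content of the 10 genes, 54.1% of its longest transcript.

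The Microprocessor genes both had estimates above 0. *Drosha* had 1611 and 3037 normalized counts in WT, 2717 and 3497 in *10xPerf*, and 5680 and 2506 in *10xBulge*. N5 was the highest library and N6 lay between the WT libraries, so the genotypes overlapped. *Dgcr8* had 1004 and 1185 in WT, 2366 and 1582 in *10xPerf*, and 1690 and 2470 in *10xBulge*, with all 4 knock-in libraries above both WT libraries. In *10xBulge* against WT, the log2 fold change was 0.77 for *Drosha* (limma adjusted p = 0.301, 95% confidence interval -0.38 to 1.92) and 0.90 for *Dgcr8* (95% confidence interval -0.025 to 1.83, limma adjusted p = 0.140). In *10xPerf* the *Dgcr8* value was 0.83 (95% confidence interval -0.10 to 1.76, limma adjusted p = 0.853), the highest of the 10 genes. Removal of the GC trend brought *Dgcr8* past the threshold in *10xBulge*, at 0.94 (limma adjusted p = 0.0747).

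The *Dgcr8* mRNA is a known Microprocessor substrate, as it carries hairpins that the complex cuts, and these are annotated as microRNAs. They are shown because they are the part of a machinery mRNA that the machinery itself reads. In RefSeq on GRCm38.p6 they lie on the reverse strand of chromosome 16, from chr16:18284248-18284268 for the first to chr16:18284602-18284623 for the last. Each is within a *Dgcr8* exon of the GENCODE annotation. The mature forms follow 5′ to 3′, with the seed, bases 2 to 8, in capitals.
mmu-miR-1306-3p: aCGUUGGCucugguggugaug
mmu-miR-1306-5p: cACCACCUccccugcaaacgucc
mmu-miR-3618-3p: cUACAUUAaugaaaagagcaau
mmu-miR-3618-5p: uGUGAUUUccaauaauugaggc
No seed is shared among them. The level of *Dgcr8* above is that of the whole gene and does not tell cut from uncut mRNA.

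*Xpo5*, the export receptor of microRNA precursors, had 2613 and 3764 normalized counts in WT, 3459 and 3808 in *10xPerf*, and 6084 and 3487 in *10xBulge*. The *10xPerf* libraries were close to N2, and N6 lay within the WT range. The log2 fold change was 0.55 in *10xBulge* (95% confidence interval -0.42 to 1.52, limma adjusted p = 0.375). For *10xPerf* it was 0.21 (95% confidence interval -0.76 to 1.18, limma adjusted p = 0.913).

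**Figure D3:**
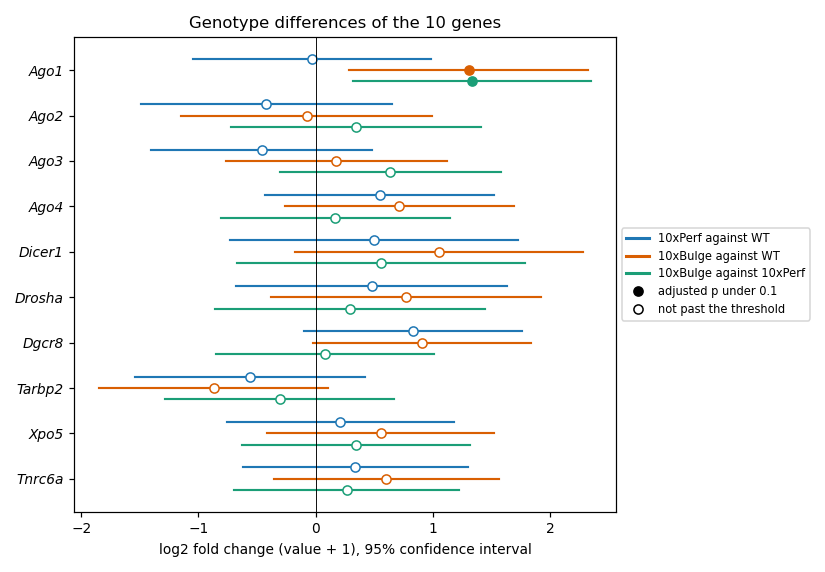
Log2 fold changes (value + 1) of the 10 genes in the 3 genotype comparisons, with 95% confidence intervals from limma over 6 libraries. Filled points have an adjusted p under 0.1. *Ago1* is filled in both comparisons that involve *10xBulge*, at 1.30 and 1.33, and all other points are open.

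Library by library, 5 of the 10 genes did not overlap between *10xBulge* and WT (*Ago1*, *Ago4*, *Dicer1* and *Dgcr8* above, *Tarbp2* below), beside 28.9% of all genes tested that lay above and 33.2% that lay below. Between *10xPerf* and WT the count was also 5 (*Ago4* and *Dgcr8* above, *Ago2*, *Ago3* and *Tarbp2* below), beside 20.2% of all genes above and 19.8% below. Between *10xBulge* and *10xPerf* it was 4, all above (*Ago1*, *Ago3*, *Ago4* and *Dicer1*), beside 30.7% of all genes above and 35.3% below. Both comparisons with WT share N1 and N2.

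The *10xBulge* libraries differed from each other more than the *10xPerf* libraries. The median absolute gap over the 10 genes was 0.70 on the log2 scale between N5 and N6, 0.58 between N1 and N2, and 0.30 between N3 and N4. N5 was above N6 for 7 genes, most of all *Ago2* (1.25), *Drosha* (1.18) and *Ago1* (0.85), and below it for *Ago3* (-0.82), *Tnrc6a* (-0.60) and *Dgcr8* (-0.55). The 5 genes of highest GC content (*Ago2*, *Xpo5*, *Ago1*, *Drosha* and *Tarbp2*, 48.9% to 54.1%) were all higher in N5, and *Ago3*, with the lowest content of 41.8%, had the largest gap the other way. With the GC trend removed, the median gap was 0.51 between N5 and N6, 0.56 between N1 and N2 and 0.20 between N3 and N4. The gap between N5 and N6 for *Ago1* became 0.52, that for *Ago3* -0.24 and that for *Ago2* 1.10. Marker sums differed between these libraries too, with Sertoli markers at 252294 in N5 and 116498 in N6, Leydig markers at 321963 and 155981, and spermatogonia markers at 22368 and 38916. Between the WT libraries, spermatocyte markers were at 39603 in N1 and 62124 in N2, and spermatid markers at 691383 and 499320. The part of cell make-up in the gaps was not tested.

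In level per kb of the longest transcript, averaged over the 6 libraries, the order was *Tarbp2* (3318 normalized counts per kb), *Xpo5* (762), *Drosha* (695), *Dgcr8* (397), *Ago2* (287), *Tnrc6a* (229), *Ago4* (219), *Dicer1* (211), *Ago1* (121) and *Ago3* (84.5). *Tarbp2* was separated from all others in every library. *Dicer1* was above *Ago1* in 6 of 6 libraries, although their ranges over the libraries overlapped. The other 7 pairs of neighbours had overlapping ranges and changed places in at least 1 library, so that their order is not fixed beyond the spread. The longest transcript may not be the one used in testis.

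The genes nearest in pattern to *Ago1*, *Ago2*, *Ago4* and *Dicer1* over the 6 libraries were also listed. Likeness was the root mean square difference of log2 values after centring each gene on its mean, over 17549 other protein-coding genes. The nearest of so many genes over 6 values are close by selection, no background distance was computed, and shared regulation was not tested. The nearest to *Ago1* were *Fam171a1* (0.072) and *Pabpc4* (0.076), and to *Ago2* *Chdh* (0.098) and *Reep2* (0.11). For *Ago4* they were *Fyb2* (0.063) and *Gdi2* (0.070), and for *Dicer1* *Phf20* (0.076) and *Wdr92* (0.088). *Fam171a1* had 414, 535, 339, 545, 1528 and 800 normalized counts from N1 to N6.

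A list of 42 other genes of the pathway, all of which passed the filter, was read in the same way. In *10xPerf* 0 of 42 were called by limma, and 0 had an unadjusted p under 0.05. In *10xBulge* against WT, 6 were higher and 1 lower, beside 11.4% higher and 23.0% lower among all genes. The median log2 fold change of the list was 0.33. Against *10xPerf*, 6 were higher and 2 lower, beside 12.9% and 24.1% of all genes.

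Among the precursor export, dicing and tailing genes, 2 of 8 were higher in *10xBulge* than in WT, beside 11.4% of all genes. *Prkra*, which encodes PACT, the other double-stranded RNA-binding partner of DICER1, had 599 and 794 normalized counts in WT, 846 and 1172 in *10xPerf*, and 2454 and 1812 in *10xBulge* (log2 fold change against WT 1.61, standard error 0.41, limma adjusted p = 0.0178). Both *10xBulge* libraries were above the other 4, and *10xPerf* lay above WT without passing the threshold. The call was lost without N1 (1.41, limma adjusted p = 0.110). Chosen after the values were seen, the log2 ratio of *Prkra* to *Tarbp2* was -4.64 and -3.61 in WT, -3.05 and -3.01 in *10xPerf*, and -1.70 and -1.58 in *10xBulge*, with no overlap between any 2 genotypes. *Lin28a*, an inhibitor of let-7 maturation, had 206 and 246 in WT, 235 and 427 in *10xPerf*, and 551 and 491 in *10xBulge* (log2 fold change against WT 1.20, standard error 0.44, limma adjusted p = 0.0747). Its call was lost without N1, N2, N5 or N6, at 1.08 to 1.33, and in a fit without the mean-variance trend (limma adjusted p = 0.103).

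Of the 9 Microprocessor cofactors, 1 was higher and 1 lower in *10xBulge* than in WT, beside 11.4% and 23.0% of all genes. *Adarb1*, an adenosine deaminase that edits double-stranded RNA, had 1483 and 1219 normalized counts in WT, 1102 and 1261 in *10xPerf*, and 518 and 454 in *10xBulge*. Both *10xBulge* libraries were below all others (log2 fold change against WT -1.47, standard error 0.38, limma adjusted p = 0.0196, and 0.101 without N1). *Adar*, the other editing enzyme of the list, had 717 and 690 in WT, 545 and 586 in *10xPerf*, and 1707 and 1020 in *10xBulge*. It was called against *10xPerf* (1.22, limma adjusted p = 0.0522) and not against WT (0.91, limma adjusted p = 0.135). *Srsf3*, a splicing factor that aids Microprocessor cutting, had 2414 and 5006 in WT, 5999 and 4885 in *10xPerf*, and 6252 and 11269 in *10xBulge*. It was higher in *10xBulge* than in WT (log2 fold change 1.27, limma adjusted p = 0.0883) and was not called against *10xPerf* (0.63, limma adjusted p = 0.370). The *Srsf3* call was lost without N1, N3, N4 or N6 (limma adjusted p = 0.397, 0.173, 0.176 and 0.270) and held in 5 of 9 other settings with all libraries.

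Of the 5 genes of microRNA and Argonaute turnover, 2 were higher in *10xBulge* than in WT, beside 11.4% of all genes. *Tsnax*, which encodes the nuclease subunit of the translin complex, had 1393 and 1840 normalized counts in WT, 1959 and 2131 in *10xPerf*, and 4523 and 4563 in *10xBulge* (log2 fold change against WT 1.50, standard error 0.38, limma adjusted p = 0.0172). The *10xBulge* libraries were nearly equal, and the call held with each library left out in turn (limma adjusted p of at most 0.0891). Its partner *Tsn* had 2579 and 2087 in WT, 1701 and 2363 in *10xPerf*, and 3786 and 4533 in *10xBulge*, which was called against *10xPerf* (1.05, limma adjusted p = 0.0757) and not against WT (0.84, limma adjusted p = 0.149). *Trim71*, itself a let-7 target, had 458 and 726 in WT, 359 and 628 in *10xPerf*, and 1296 and 1562 in *10xBulge* (log2 fold change against WT 1.30, limma adjusted p = 0.0619, and 0.279 without N1 and 0.141 without N6).

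The Argonaute loading chaperones held 1 gene that was higher in *10xBulge* than in WT among 7, beside 11.4% of all genes. *Fkbp5* had 1632 and 1969 normalized counts in WT and 8211 and 2694 in *10xBulge* (log2 fold change 1.39, limma adjusted p = 0.0917), and without N5 the value was 0.59 (limma adjusted p = 0.415). The *Fkbp5* call held in 1 of the 6 fits with a library left out, that without N6, and in 5 of 9 other settings with all libraries. *Dnajc7* was lower in *10xBulge* than in *10xPerf*, with 2644 and 2524 against 5600 and 5905 (-1.15, limma adjusted p = 0.0517), and had 2856 and 4065 in WT. Of the 13 silencing effectors and decay genes, 0 were called by limma against WT, beside 34.4% of all genes, and *Mov10* alone had an unadjusted p under 0.05. *Mov10*, a helicase bound to AGO proteins, was called against *10xPerf*, with 5026 and 2749 in *10xBulge* and 1363 and 1625 in *10xPerf*, beside 2278 and 1333 in WT (1.32, limma adjusted p = 0.0593).

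**Figure D4:**
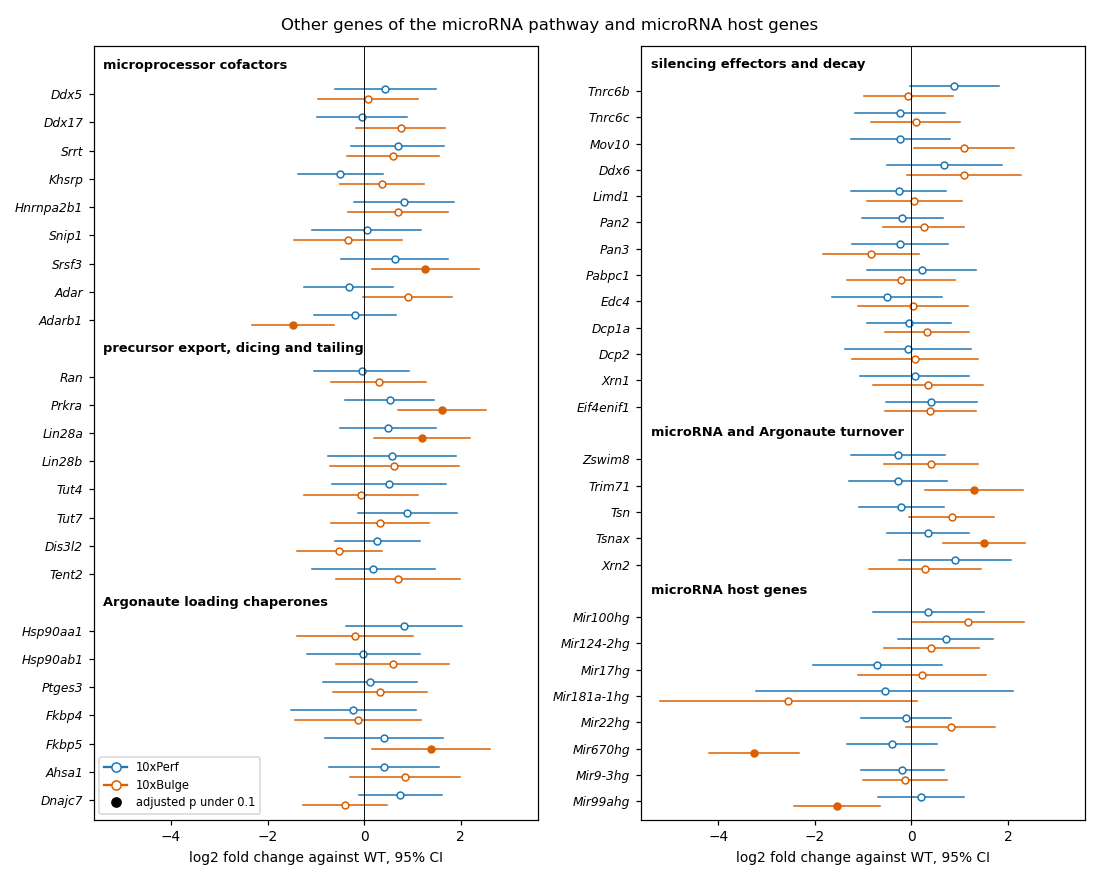
Log2 fold changes against WT with 95% confidence intervals (limma, 6 libraries), in *10xPerf* (blue) and *10xBulge* (orange). Shown are 42 other pathway genes in their groups and the 8 microRNA host genes, chosen by symbol (Mir to hg), that passed the filter. Filled points have an adjusted p under 0.1. They are all from *10xBulge*, 6 above 0 and 1 below 0 in the pathway groups, and *Mir670hg* and *Mir99ahg* below 0 among the host genes.

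MicroRNA host genes are long transcripts in whose introns or exons microRNA hairpins lie. Of the 14 genes in the table whose symbol starts with Mir and ends with hg, 8 passed the filter. Hosts with other symbols, such as *Dgcr8* and *Xpo5*, are not among them. In *10xBulge*, 2 of the 8 were lower than in WT and than in *10xPerf*, beside 23.0% and 24.1% of all genes. *Mir670hg* had 733 and 756 normalized counts in WT, 627 and 508 in *10xPerf*, and 92.8 and 63.5 in *10xBulge*. Against WT this was a log2 fold change of -3.26 (standard error 0.41, limma adjusted p = 0.000316). *Mir99ahg* had 372 and 439 in WT, 446 and 482 in *10xPerf*, and 126 and 152 in *10xBulge*, with a log2 fold change against WT of -1.54 (standard error 0.40, limma adjusted p = 0.0196). Both calls held with each library left out in turn. The other 6 host genes did not pass the threshold, among them *Mir17hg*, the host of the miR-17 to miR-92a cluster, with 977 and 494 in WT, 505 and 361 in *10xPerf*, and 461 and 1419 in *10xBulge*.

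*Mir100hg*, whose microRNAs resemble those of *Mir99ahg*, had 176 and 126 normalized counts in WT, 240 and 152 in *10xPerf*, and 231 and 498 in *10xBulge* (log2 fold change against WT 1.18, limma adjusted p = 0.122). Chosen after the values were seen, the log2 ratio of *Mir99ahg* to *Mir100hg* was 1.08 and 1.80 in WT, 0.89 and 1.67 in *10xPerf*, and -0.87 and -1.72 in *10xBulge*. The mature microRNAs inside these transcripts are shown because they tie the host genes to what they could encode, and no level was measured for any of them. The sequences are from RefSeq on GRCm38.p6, 5′ to 3′, with the seed in capitals. *Mir670hg* is on the reverse strand of chromosome 2 from 94160636 to 94264918 and holds in introns miR-670 and miR-129-2, the latter's 5p form at chr2:94241419-94241439.
mmu-miR-670-5p: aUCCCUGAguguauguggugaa
mmu-miR-129-5p: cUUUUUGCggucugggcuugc
*Mir99ahg* spans 77236317 to 77773427 of chromosome 16 (forward strand), with the following in its introns, let-7c at chr16:77599672-77599693.
mmu-miR-99a-5p: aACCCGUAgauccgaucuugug
mmu-let-7c-5p: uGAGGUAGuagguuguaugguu
mmu-miR-125b-5p: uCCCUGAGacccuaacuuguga
*Mir100hg* spans 41327077 to 41716994 of chromosome 9 (forward strand), and miR-100 lies in its introns at chr9:41531437-41531458.
mmu-miR-100-5p: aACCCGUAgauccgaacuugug
The seed ACCCGUA is shared by miR-99a and miR-100, and miR-125b-5p has a copy in each of these hosts. *Mir100hg* also holds a let-7 gene, *Mirlet7a-2*, beside let-7c in *Mir99ahg*. A lower *Mir99ahg* transcript therefore does not give the level of any of these microRNA families.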

How the data were processed

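Of the 26 samples of the series, 6 testis RNA-seq libraries (WT, *10xPerf* and *10xBulge*, 2 libraries each) were used, and the 20 MILI and MIWI immunoprecipitation libraries were not analysed here. The authors quantified single-end reads of stranded libraries with salmon (GC correction on) against the Ensembl annotation of GRCm39 and deposited DESeq2-normalized counts, a signal per gene that is not whole reads. They also deposited the mean signal over all libraries and, for each line against WT, log2 fold changes and adjusted p-values of their own, which were not used. GRCm38 and GRCm39 are the builds named in the submitters' processing notes.

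The filter asked for 10 normalized counts or more in 2 or more libraries and left 23782 genes. For these, limma 3.58.1 (R 4.3.3) modelled log2(value + 1) by genotype, its variance prior following mean expression, with Benjamini-Hochberg adjustment over all of them. The planned test depended on the unit, and the limma option applied since the table holds normalized values and not raw counts. A log2 fold change of value + 1 understates changes of low genes. The p-values rest on the spread between the 2 libraries of a genotype, pooled over the 3 genotypes. This spread was drawn toward the trend over all genes, so it is not that of a single pair. GC content and length are those of the longest GENCODE transcript on GRCm38, known for 23614 of the genes tested. Depth was estimated by dividing each library's sum by its most frequent low value, the worth of 1 read, and floors of 3 reads cover counting error only. On simulated data for *10xBulge* against WT (23782 genes, 200 changed), 59% of genes changed by 4 and 12% of those changed by 2 on the log2 scale were called, and 7.79% of the calls were unchanged genes. The simulation drew each gene independently and changed far fewer genes than the 34.4% called in the real comparison. Its rates therefore do not carry over to that comparison.

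Alternatives were pseudocounts of 0.1 and 10, 2 other filters, scaling by library totals or the upper quartile, a fit of 2 genotypes only, an adjusted p under 0.05, no mean-variance trend, removal of each library's GC trend (loess, span 0.3), and leaving out each library in turn, where the lone library of a genotype is assumed to vary like the others. The members, the pathway and marker lists and the rules for named genes (all members, pathway and host genes past the threshold, the 2 nearest genes in pattern, and *Ythdc2*) were chosen with earlier results of these data known. The nearest genes in pattern to *Ago3* are not reported here. *Tekt2*, the host genes *Mir17hg* and *Mir100hg* and the 2 ratios were named after their values were seen. Figures were drawn with matplotlib 3.10.9 in Python 3.11.15.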

Additional observations from a re-analysis of the deposited data

Results flagged for a closer look

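The results below are differences between the knock-in lines, as the effect of *10xBulge* against WT differed from that of *10xPerf* against WT by the direct test of *10xBulge* against *10xPerf* (limma, adjusted p under 0.1 over all genes, a threshold that 37.0% of all genes passed). Among the 10 machinery genes this was *Ago1*, with a log2 difference of 1.33. Higher in *10xBulge* were also *Adar* (1.22), *Prkra* (1.08), *Mov10* (1.32), *Trim71* (1.58), *Tsn* (1.05) and *Tsnax* (1.15), and lower were *Adarb1* (-1.28), *Dnajc7* (-1.15), *Mir670hg* (-2.86) and *Mir99ahg* (-1.74). With 1 library left out in turn, *Mir670hg* and *Mir99ahg* kept this call in all 6 fits, *Trim71* in 5, and the others in 2 to 4, where *Ago1*, *Adar*, *Prkra*, *Mov10* and *Tsnax* lost it without N3, N4 or N5, *Adarb1* and *Dnajc7* without N3 or N4, *Tsn* without N3, N4, N5 or N6, and *Trim71* without N3. *Prkra* and *Tsn* also lost it in a fit without the mean-variance trend. Groups of 2 libraries are too small to test single libraries as outliers.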

How the results depend on the processing

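No paired analysis was possible because the libraries of the genotypes carry different numbers. With all 6 libraries, 286 of 300 alternative values of the 10 genes kept their direction and side of the threshold, and with 1 library left out 155 of 180. *Ago1* in *10xPerf* against WT (-0.029) was 0.10 under library totals and 0.018 after GC removal, and *Ago2* in *10xBulge* against WT (-0.078) was 0.31 under library totals. Library totals also shifted the median over all genes in that comparison from -0.026 to 0.35 and called *Ago4* (1.10), *Dicer1* (1.44), *Drosha* (1.15), *Dgcr8* (1.29) and *Xpo5* (0.94) as well, giving 6 of the 10 higher, and GC removal gave 2 higher and 1 lower. The *Ago1* calls were lost at an adjusted p under 0.05 in both comparisons (0 of 10 genes) and, against WT, with only the 2 genotypes fitted (0 of 10 genes, limma adjusted p = 0.116, in a range of 0.0138 to 0.116 over these settings). Against *10xPerf*, GC removal called *Ago3* as well (0.89, limma adjusted p = 0.0471, 2 of 10 genes). The causes were not tested.

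Without 1 library, the 10 genes had 0 to 2 higher calls against WT and 0 to 1 against *10xPerf* in *10xBulge*. Values that changed sign then ranged, in *10xPerf* against WT, from -0.30 to 0.24 for *Ago1*, -0.32 to 1.32 for *Dicer1*, -0.053 to 0.47 for *Xpo5* and -0.016 to 0.69 for *Tnrc6a*. In *10xBulge* against WT they ranged from -0.70 to 0.55 for *Ago2* and -0.23 to 0.59 for *Ago3*, and against *10xPerf* from -0.28 to 0.97 for *Ago2*, -0.30 to 0.88 for *Drosha*, -0.21 to 0.37 for *Dgcr8*, -0.058 to 0.75 for *Xpo5* and -0.037 to 0.56 for *Tnrc6a*.

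Over all genes, calls in *10xPerf* against WT were 111 higher and 117 lower, against 63 and 72 at an adjusted p under 0.05, 40 and 65 with a pseudocount of 0.1, 44 and 53 with 10 or more in all libraries, 73 and 77 under library totals, 214 and 190 with only 2 genotypes fitted, and 11 to 204 and 10 to 186 without 1 library. In *10xBulge* against WT, the 2712 higher were 1370 at an adjusted p under 0.05, 5778 under library totals, 1512 with only 2 genotypes fitted and 636 to 2858 without 1 library, and the 5466 lower were 2926 with at least 10 in every library and 3919 to 5574 without 1 library. Against *10xPerf*, the 3077 higher were 1725, 5108 under library totals and 418 to 3286 without 1 library, and the 5729 lower were 3064 with at least 10 in every library and 3730 to 5812 without 1 library.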
